A study of Mus musculus with 300 samples.

Results

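The common gamma-chain cytokine receptors were described through 5 receptor chain genes, Il2ra, Il2rb, Il2rg, Il7r and Il4ra, chosen by name from the 13737 features of a single-cell expression matrix. All 5 were in the matrix and were followed in every cell of it. The cells were sorted as early thymic progenitors (ETPs), the most immature T-lineage precursors, from the thymus of E15.5 mouse embryos. All carried the same reporter background, named 5x polychromILC in the labels, and there was no treatment and no second group. Mouse label 1A had 67 cells, 1B had 69, 2A had 64 and 2B had 61, and values for single mice are given in that order below. The labels do not say whether a mouse label is 1 embryo or several, so the spread between mice may be partly technical. The question was which chains each cell transcribes, in which combinations, and how they relate to Kit, the stem cell factor receptor that marks ETPs, and to receptor genes of natural killer (NK) cells.

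The gamma chain, the product of Il2rg, is the signalling subunit shared by the receptors for IL-2, IL-4, IL-7, IL-9, IL-15 and IL-21, and its loss stops the development of T and NK cells. A private chain sets the ligand: IL-7R alpha (Il7r) for IL-7, IL-4R alpha (Il4ra) for IL-4, and IL-2R beta (Il2rb) for IL-2 and IL-15, with CD25 (Il2ra) raising the affinity for IL-2. Signals pass through the kinases Jak1 and Jak3 to STAT proteins. In the thymus, IL-7 supports early lymphoid cells, CD25 appears on precursors that leave the ETP stage, and IL-2R beta carries the IL-15 signal that NK cells need.

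The genes lie at separate places in the genome (build GRCm38): Il2ra at chr2:11642807-11693193 on the plus strand, Il2rb at chr15:78479256-78495271 on the minus strand, Il2rg at chrX:101264378-101268255 on the minus strand, Il7r at chr15:9505788-9530176 on the minus strand and Il4ra at chr7:125552120-125579474 on the plus strand. Exons of Il2rg overlap those of Gm20489 on the same strand, and exons of Il4ra overlap the antisense gene Gm44876. No strand marking is stated for these libraries, so reads in those overlaps cannot be told apart. The promoters of Il2ra and Il7r are shown as examples of the private chains whose relation to Kit is described below. Each runs from 250 bases before to 50 bases after the RefSeq start (GRCm38.p6), at chr2:11642542-11642841 on the plus strand and chr15:9529827-9530126 on the minus strand, written 5′ to 3′ along the gene, with motif matches in capitals.

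Il2ra: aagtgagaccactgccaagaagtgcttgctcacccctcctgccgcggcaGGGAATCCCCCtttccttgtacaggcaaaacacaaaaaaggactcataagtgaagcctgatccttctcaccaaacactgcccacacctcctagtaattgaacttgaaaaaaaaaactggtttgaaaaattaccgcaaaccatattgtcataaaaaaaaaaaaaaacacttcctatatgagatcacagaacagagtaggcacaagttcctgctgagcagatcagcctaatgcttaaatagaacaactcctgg

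Il7r: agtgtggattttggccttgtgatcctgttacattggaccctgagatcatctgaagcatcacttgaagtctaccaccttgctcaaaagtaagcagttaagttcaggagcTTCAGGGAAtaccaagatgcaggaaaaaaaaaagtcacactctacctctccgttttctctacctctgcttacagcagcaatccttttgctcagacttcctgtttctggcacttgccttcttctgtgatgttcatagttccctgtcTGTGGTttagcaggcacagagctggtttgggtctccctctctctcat

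The capitals in the Il2ra promoter are overlapping NF-kappaB matches (GGG, any 5 bases, CC, on both strands) that begin at bases 50 and 51. Those in the Il7r promoter are a palindromic STAT match (TTCNNNGAA) and, nearer the start site, a RUNX match (TGTGGT, along the gene). Of 27025 mouse promoters of this length searched on both strands, 50.4% held the NF-kappaB motif, 8.47% the STAT motif and 16.9% the RUNX motif. The Il2rg promoter held the RUNX motif and the Il4ra promoter the NF-kappaB motif. The GATA motif (AGATAA, in 11.4% of promoters) was in none of the 4 promoters searched, those of Il2ra, Il2rg, Il7r and Il4ra. A match is a description of the letters.

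A median of 7782 genes was detected per cell (5073 to 10337), with medians of 7518, 7544, 7787 and 8243 by mouse. Read depth per cell is unknown, because the deposited values are normalized and batch-corrected log2 levels. In that correction each gene has 1 repeated value for cells with no reads in each of 4 sets of cells, and a gene is called detected in a cell where its value differs from that one. Levels are given as log2 above the value at no reads. A cell called high, or at a high level, for a gene reached a linear level of 10 or more on that scale. Levels and shares are not compared between genes, since no scale per gene length was stated. In all, 14 cells were in a correction set other than the usual ones of their mouse label (6 of 1A, 5 of 1B and 3 of 2A). The libraries were sequenced in 2 pools, and plate JW8, with 25 cells, held mouse 2B alone. Set against the ETP label, the progenitor genes Kit, Cd34, Lyl1 and Flt3 were detected in 91.01 ± 5.70%, 94.6 ± 3.12%, 89.1 ± 5.88% and 61.1 ± 5.09% of cells (SD, n = 4 mice), and the T cell factor gene Tcf7 in 81.2 ± 11.5%. The later T-lineage genes Bcl11b and Cd3e were detected in 36 and 17 cells. How the cells were gated was not stated.

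Il2rg, the gene of the shared gamma chain, was detected in 100% of cells of mice 1A, 2A and 2B and in 97.1% of mouse 1B (95% exact Clopper-Pearson interval 89.9 to 99.7%). Its mean over mice was 99.3 ± 1.45% (SD, n = 4), and 95.4 ± 1.11% of cells had it at a high level. Among detected cells its median log2 level was 8.51, 7.97, 8.36 and 8.61. The 2 cells without it were both of mouse 1B, and both had Il7r and Il4ra. A cell without Il2rg could be recognised in 1 correction set only, which held 64 of the 69 cells of mouse 1B, because in the other 3 sets no value was repeated; a difference between mice in this share is therefore not readable. These intervals, like the others below, cover the counting of cells only.

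Il2rb, the chain shared by the IL-2 and IL-15 receptors, was mostly found as a trace. It was detected in 26.9%, 36.2%, 34.4% and 57.4% of cells by mouse, or 38.7 ± 13.1% (SD, n = 4). Only 29 of the 100 cells with Il2rb had it at a high level, and the other 71 lay below. The median log2 level in detected cells was 3.01, 2.20, 1.28 and 1.28 in the same order, over a range from 0.56 to 14.79, so a low majority and a few very high cells were mixed. The mouse with the most Il2rb-detected cells, 2B, had the smallest share at a high level, 4.92% against 11.9%, 13.04% and 14.1% in the others. Within its usual correction set mouse 1A had 3 of 61 cells at a high level, and 1B 6 of 64. The contrast of 1A with 2B thus rests on cells outside that set.

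Il2ra, which encodes CD25, was detected in 49.3%, 34.8%, 62.5% and 72.1% of cells by mouse, with a mean of 54.7 ± 16.2% (SD, n = 4). Sorted by size, neighbouring mice had overlapping exact intervals, while those of 1B (23.7 to 47.2%) and 2B (59.2 to 82.9%) did not. At a high level the shares were 31.3%, 24.6%, 42.2% and 39.3%, or 34.4 ± 7.95%, which left 52 cells detected below it. The median log2 level in detected cells was 5.42, 5.81, 5.34 and 4.43, so mouse 2B had the most cells with Il2ra and the lowest median among them. ETPs are usually gated as CD25-negative, and 89 cells of this sort had Il2ra transcripts at a high level, which says nothing of the protein.

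Il7r, the private chain of the IL-7 receptor, was detected in 68.7%, 57.97%, 67.2% and 67.2% of cells by mouse, or 65.3 ± 4.91% (SD, n = 4), and the exact intervals of all 4 mice overlapped. At a high level it was found in 44.8%, 33.3%, 34.4% and 32.8%, with mouse 1A above the rest. Median log2 levels in detected cells were 5.38, 4.33, 3.58 and 3.25.

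Il4ra, the private chain of the IL-4 receptor, was detected in 61.2%, 65.2%, 71.9% and 81.97% of cells, or 70.1 ± 9.08% (SD, n = 4). Neighbouring mice overlapped in their intervals, and so did the lowest (48.5 to 72.9%) and the highest (70.0 to 90.6%). At a high level the shares were 38.8%, 47.8%, 50% and 67.2%. Median log2 levels in detected cells were 6.37, 6.98, 6.65 and 6.90, so mice differed in the share of Il4ra cells while the level within them stayed within 1 log2 unit.

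**Figure D1:**
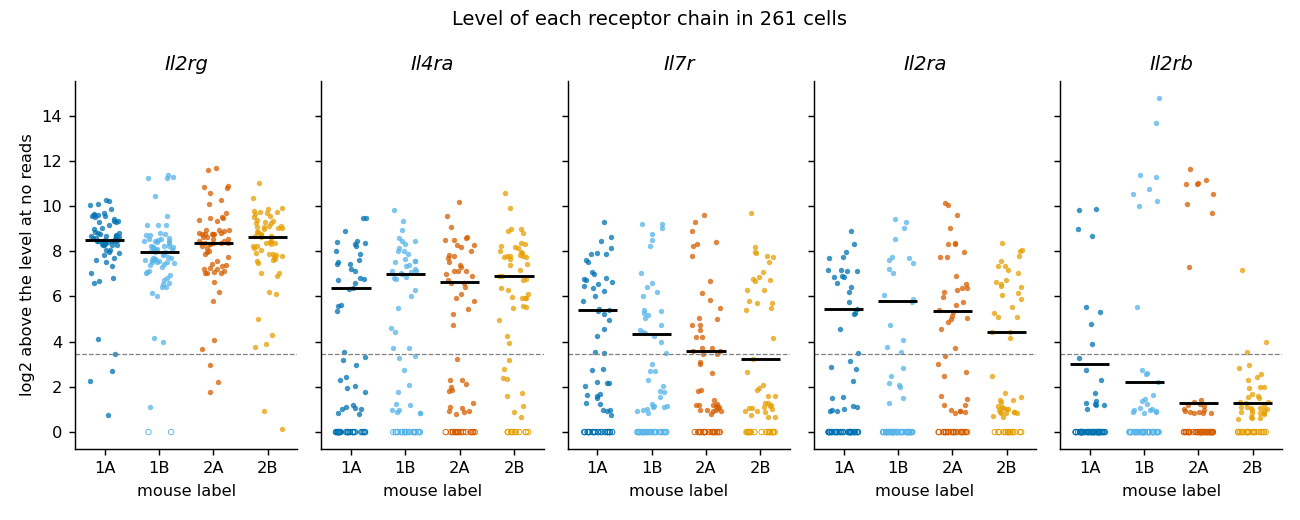
Log2 level above the value at no reads (y axis) of each receptor chain in single cells, by mouse label (x axis). Each point is 1 cell (open where not detected), black lines are medians of detected cells and the dashed line is the high level. Il2rg sits high in nearly all cells, while Il2rb is a low band with a few cells far above it.

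Detection also differed by plate and sequencing pool. Il2rb was detected in 29.7% of cells sequenced in pool SLX-16312 and 53.1% in pool SLX-16315, Il2ra in 47.9% and 64.6%, Il4ra in 62.4% and 82.3% and Il7r in 61.8% and 70.8%. Mouse 2A had cells in both pools, and within it Il2rb was detected in 20.7% of 29 and 45.7% of 35 cells, Il4ra in 58.6% and 82.9% and Il7r in 55.2% and 77.1%. Il2ra went the other way within mouse 2A, at 75.9% and 51.4%. On plate JW8, Il2ra was detected in 92% and Il2rb in 84% of the 25 cells. Without that plate the means over mice were 51.2 ± 12.3% for Il2ra and 34.1 ± 5.16% for Il2rb (SD, n = 4). All cells of mice 1A and 1B were in SLX-16312 and all of 2B in SLX-16315, so differences between them cannot be told apart from the pool.

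**Figure D2:**
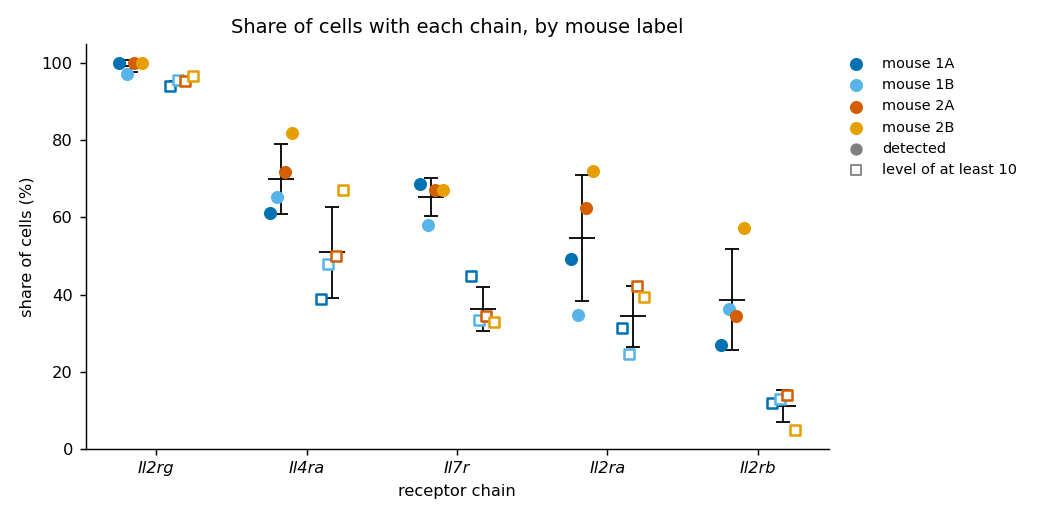
Share of cells (y axis, percent) with each receptor chain (x axis) detected (circles) and at a high level (squares) in each mouse, with the mean and SD of 4 mice as black bars. The Il2ra shares run from 34.8% in mouse 1B to 72.1% in 2B, and the Il7r shares from 57.97% to 68.7%.

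Cells held 17 of the 32 possible combinations of chains. Those without Il2rg could be recognised in 1 correction set only, so the count does not show how freely chains combine. The most frequent combination was Il2ra, Il2rg, Il7r and Il4ra without Il2rb, in 39 cells (14, 3, 15 and 7 by mouse). All 5 chains were detected in 32 cells, of which 18 were of mouse 2B, and Il2rg, Il7r and Il4ra without either IL-2 receptor chain in another 32, of which 14 were of 1B. Il2rg alone was detected in 12 cells. By number of chains, 12 cells had 1, 51 had 2, 86 had 3, 80 had 4 and 32 had 5. At a high level the combinations were sparser: 110 cells had 2 chains and 49 had 1, led by Il2rg with Il4ra in 46 cells, and 1 cell had all 5.

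**Figure D3:**
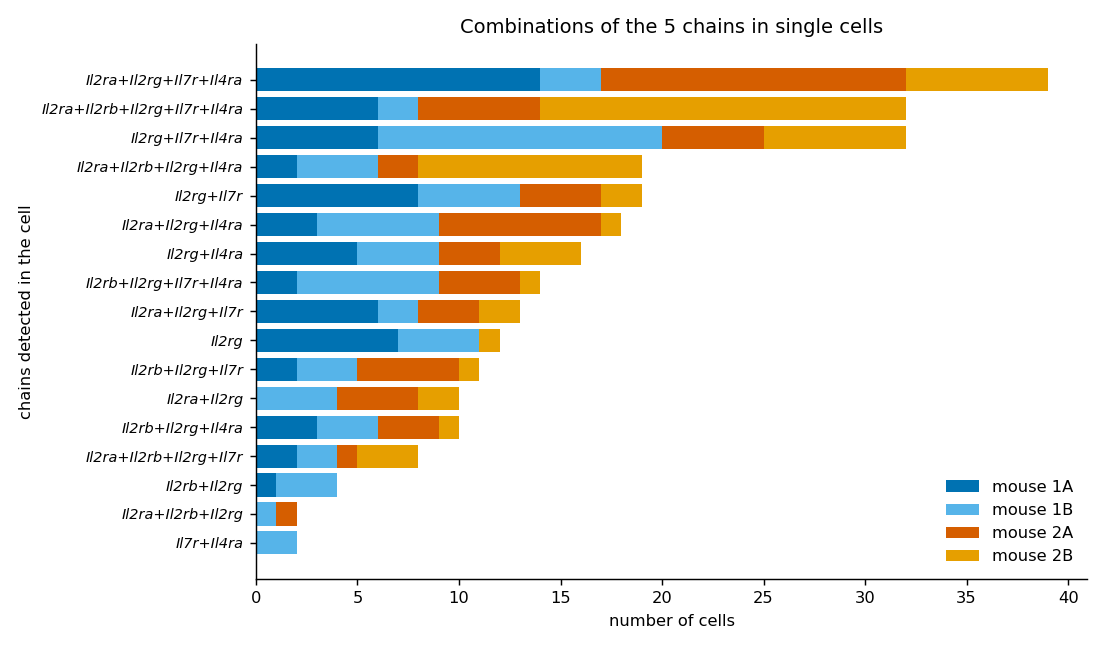
Number of cells (x axis) with each combination of detected receptor chains (y axis), with the bars split by mouse label. The combination of all chains but Il2rb leads with 39 cells, and 18 of the 32 cells with all chains are of mouse 2B.

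In terms of whole receptors, the chains for IL-4 (Il4ra with Il2rg) were detected together in 180 cells, or 69.3 ± 9.69% (SD, n = 4), and both were high in 49.04% of all cells. Those for IL-7 (Il7r with Il2rg) were together in 68.7%, 55.1%, 67.2% and 67.2% of cells by mouse, with 89 cells at a high level for both. Both chains of the intermediate-affinity IL-2 receptor (Il2rb with Il2rg) were detected in 100 cells, 27 at a high level. The full IL-2 receptor of Il2ra, Il2rb and Il2rg was detected in 61 cells and was at a high level for all its chains in 6. Among receptors that borrow one member, Il7r with Crlf2, the chain that binds thymic stromal lymphopoietin, was found in 89 cells, Il9r with Il2rg in 85, Il21r with Il2rg in 58.2% of cells, Il15ra with Il2rb and Il2rg in 41 cells, and Il4ra with Il13ra1, the receptor of IL-4 and IL-13 that lacks the gamma chain, in 22.

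The full IL-2 receptor combination was found in 14.9%, 13.04% and 15.6% of cells of the first 3 mice and in 52.5% of mouse 2B. Mouse 2B stood apart on JW8, with 19 of 25 cells (76%, exact interval 54.9 to 90.6%). On its other plate, JW7, it had 13 of 36 (36.1%, 20.8 to 53.8%). Mouse 2A, in the same correction sets, had the combination in 17.1% of 35 cells (6.56 to 33.6%) and 15.4% of 26. The JW7 interval of 2B overlapped that of 2A on JW7. It also overlapped those of 1A (5.84 to 24.2%) and 1B (6.64 to 25.02%) in their usual sets. On JW8 the Il2rb part was a trace, with a median log2 level of 1.96 in the 21 detected cells and 3 cells at a high level. Without JW8, mouse 2B held it in 36.1% of cells and the mean over mice was 19.9 ± 10.8% in place of 24.01% (SD, n = 4).

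Chains were detected together about as often as their separate shares inside each mouse and correction set would give. This covers detection, traces included. For Il2ra with Il2rb the share of cells with both was above the product of the shares by 1.80 ± 4.85 percentage points (SD, n = 4 mice, 3 positive), and for Il2ra with Il4ra by 3.01 ± 3.59 points (3 of 4 positive). For Il2ra with Il7r the difference was 0.13 ± 6.42 points and ran from -7.61 in mouse 1B to 7.82 in 1A. For Il7r with Il4ra it was -0.08 ± 2.41 points. All 4 values are within 1 SD of 0. Il2rb with Il7r was above the product in all 4 mice, by 1.03 ± 0.99 points, and by -0.05 points where the product was taken inside each mouse alone. All pairs were also taken with the product inside each mouse, or at a high level in place of detection. In these settings 8 differences moved by 1 SD or more and 22 did not, so pairing at a high level is not described by the values above. With 4 mice an exact two-sided permutation test cannot go below p = 0.13.

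Kit and the chains were first compared by their shares at a high level, as a description. Kit was at a high level in 81.7 ± 5.63% of cells (SD, n = 4) and below it in 48 cells. Il2ra was high in 40.8% of the Kit-high cells and in 2 of the 48 others (4.17%). By mouse, 20 of 52, 16 of 58, 27 of 49 and 24 of 54 Kit-high cells had it. Il4ra was high in 54.9% of the Kit-high cells and 15 of the 48 others, lower among the others in 3 mice and higher in 2B (35 of 54 against 6 of 7). Il7r was high in 32.4% of the Kit-high cells and in 26 of the 48 others (54.2%). By mouse these were 21 of 52, 15 of 58, 15 of 49 and 18 of 54 Kit-high cells against 9 of 15, 8 of 11, 7 of 15 and 2 of 7, so mouse 2B went the other way. Il2rb was high in 4.69% of the Kit-high cells and 19 of the others (39.6%), where 2B again differed, with 3 of 54 against 0 of 7. Without the first 8 cells of each correction set, many of them high in NK receptor genes as described below, the Il2rb shares were 2% and 3 of 29 (10.3%), and those of Il7r 31.5% and 17 of 29 (58.6%). Il2rg was high in 99.1% and 79.2%. The Kit-high cells had a median of 7955 detected genes and the others 6600, and the part of this in the shares was not tested.

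High Il2rb was found mainly in cells with many NK receptor genes. Of 26 NK receptor genes listed, 17 were in the matrix, and cells had a median of 3 and at most 16 of them. At the split of 2 or more genes, Il2rb was at a high level in 29 cells with them and in 0 of the 25 with fewer, which allows a share of up to 12%. In finer steps it was high in 0 cells with 2 to 3 of these genes (a share of up to 2.27% is allowed), 0 of 59 with 4 to 5 (up to 5.08%), 2 of 15 with 6 to 7, 10 of 13 with 8 to 11 and 17 of 17 with 12 or more. High Il2rb and a broad NK receptor set were nearly the same cells.

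The split at 8 or more NK receptor genes, chosen after these values were seen, gave 30 NK-high cells (9, 8, 9 and 4 by mouse), with 22 cells at 6 to 9 genes, near the boundary. Of the 30, 23 were in a usual correction set of their mouse label, so the values by mouse rest partly on cells outside those sets. Il2rb was at a high level in 27 of the 30 and in 2 of all other cells (0.866%). Its median log2 level in detected cells was 10.01 (1.13 to 14.79) against 1.21 (0.56 to 5.55). By mouse the NK-high medians were 7.10, 11.003, 10.98 and 2.96, against 1.34, 1.23, 0.96 and 1.21, so mouse 2B had the weakest Il2rb among its NK-high cells. Il4ra was high in 7 of the 30 (23.3%) against 54.1% of the others, Il7r in 15 (50%) against 34.6%, and Il2ra in 9 (30%) against 34.6%. The median log2 level of Il2rg was 10.07 against 8.30. The NK-high cells had a median of 6689 detected genes, the others 7830.

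The NK-high cells were not spread evenly over the plates. Of the 30, 26 sat in a well next to another, and 4 runs of 3 or more neighbouring wells held 24 of them. Of the 32 cells that were the first 8 of each correction set, 21 were NK-high. Without those 32 cells Il2rb was high in 6 of 9 NK-high cells and 1 of 220 others, and without the 14 cells outside the usual sets of their label in 20 of 23 and 1 other (0.446%). The Il2rb split was thus present with and without these cells. Those of the other chains were not all so: without the 32 cells, Il2ra was high in 6 of 9 NK-high cells against 35% of the others, which turned its direction, Il4ra in 4 of 9 (44.4%) against 53.2%, and Il7r in 6 of 9 against 33.6%. The part of plate position in these values was not tested.

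Kit and the NK receptors crossed gave 4 states. In the Kit-high cells that were not NK-high, Il2ra was at a high level in 39.6%, Il4ra in 56.4%, Il7r in 31.2%, Il2rg in 99.01% and Il2rb in 0.990% (2 cells). In the 29 cells that were neither Kit-high nor NK-high, Il7r was at a high level in 17, Il4ra in 11, and Il2ra and Il2rb in 0 each, which allows shares of up to 10.3%. The 19 NK-high cells low in Kit all had high Il2rb, with Il2ra high in 2 and Il4ra in 4. The 11 NK-high cells that were also Kit-high had high Il2rb in 8 and high Il2ra in 7, of which 3 were of mouse 1A and 4 of 2B, so the value rests on these mice.

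**Figure D4:**
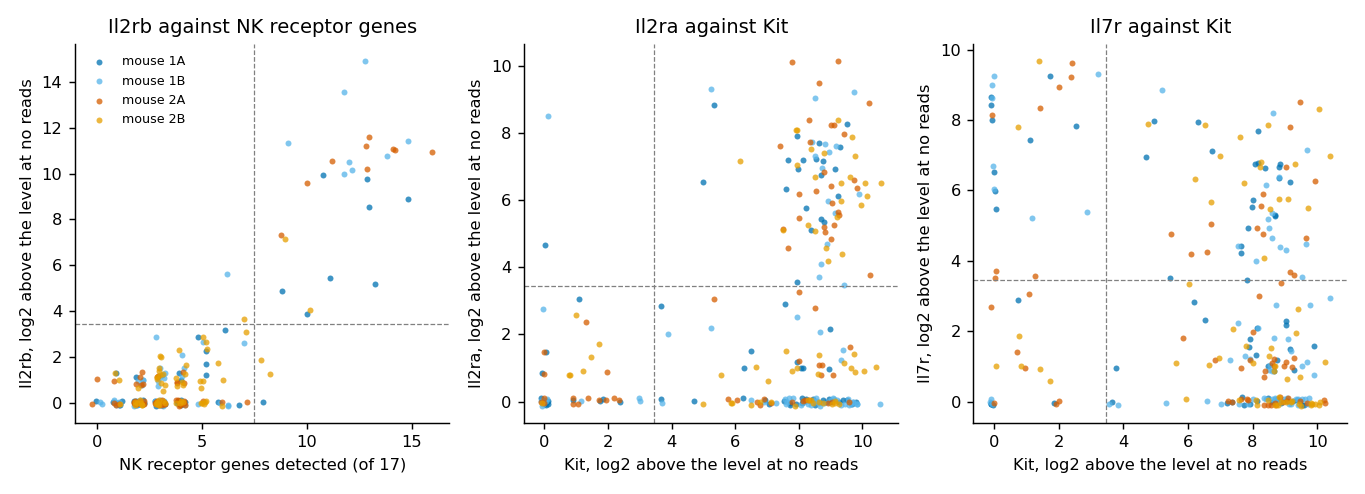
Log2 level (y axes) of Il2rb against the number of NK receptor genes detected, and of Il2ra and Il7r against the log2 level of Kit (x axes), with 1 point per cell, coloured by mouse and shifted slightly at random, and dashed lines at a high level and at 8 NK receptor genes. Il2rb is high in 27 of 30 cells right of the line, and Il2ra in 2 of 48 cells left of the Kit line.

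Clustering of the cells without the 5 members placed the chains among the cell kinds of the sort, as a description with no test. The NK receptors-like cluster (21 cells: 3, 8, 10 and 0 by mouse), led by Klrk1, Ctsw and Ccr8, had Il2rb at a high level in 95.2%, Il2rg in 95.2%, Il7r in 42.9%, Il4ra in 14.3% and Il2ra in 4.76%. A dendritic-like cluster of 19 cells (10, 3, 3 and 3 by mouse) was led by Siglech, a plasmacytoid dendritic cell gene. It had Il7r in 78.9%, Il2rg in 63.2% and Il2ra in 0 of 19, which allows up to 15.8%. The 9 mast and basophil-like cells (5, 1, 2 and 1 by mouse) were led by Hdc and Mcpt8. They had Il7r at a high level in 88.9% and Il4ra in 22.2%. Mouse 1A thus gave the most cells to both clusters. A second dendritic-like cluster of 21 cells, led by Cd74, had Il4ra in 52.4%, Il7r in 33.3% and Il2ra in 14.3%.

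Most Kit-high cells were in 3 larger clusters. An unnamed cluster of 56 cells led by Mpo, Pdgfrb and Adgrg1, all of them high in Kit, had Il2ra at a high level in 46.4%, Il4ra in 50%, Il7r in 23.2% and Il2rb in 0 of 56, which allows up to 5.36%. An unnamed cluster of 61 cells led by Rrm2 and Dctd, genes of nucleotide supply for DNA synthesis, had Il4ra in 63.9%, Il2ra in 47.5% and Il7r in 40.98%. The G2M phase-like cluster of 60 cells had Il4ra in 71.7%, Il2ra in 35% and Il7r in 23.3%. A cluster of 14 cells with no markers of any list, 8 of them of mouse 2B, had Il2ra in 57.1%. Il2rb was at a high level in at most 14.3% of any cluster but the NK receptors-like one.

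**Figure D5:**
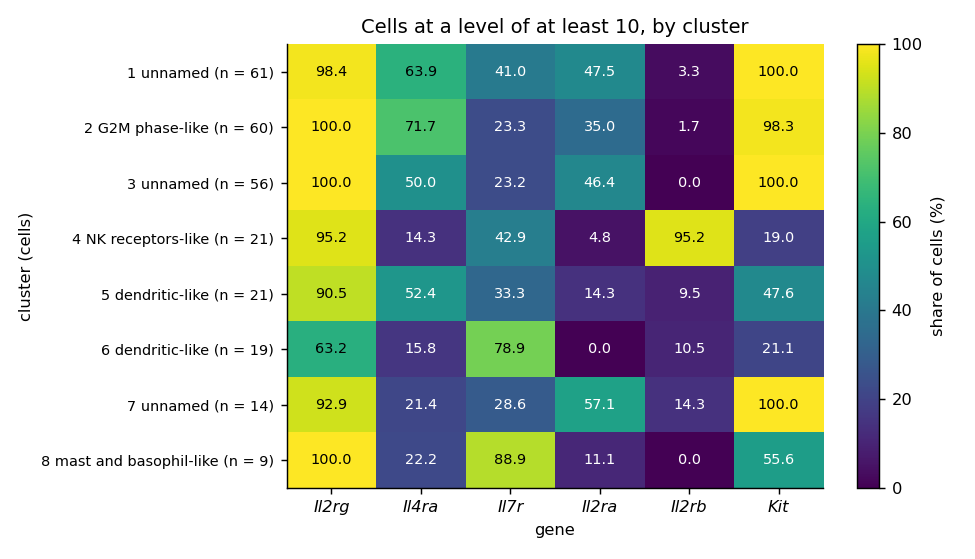
Share of cells (colour and numbers, percent) with each receptor chain and Kit (x axis) at a high level in the 8 clusters (y axis, with their number of cells), which were made without the receptor chains. Il2rb stands at 95.2% in the NK receptors-like cluster, and Il7r at 78.9% and 88.9% in the Siglech-led and the mast and basophil-like clusters.

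The other genes of the pathway were mostly present. Of the kinases, Jak1, which pairs with the private chains, was detected in 99.3 ± 1.49% of cells (SD, n = 4), Jak3, which pairs with the gamma chain, in 83.95 ± 2.80% and Tyk2 in 85.4 ± 4.49%. Stat5a and Stat5b, the factors of IL-2, IL-7 and IL-15 signals, were in 85.2 ± 5.46% and 87.3 ± 5.10%, Stat6, the factor of IL-4, in 88.6 ± 3.60%, and Irs2, an adaptor of the IL-4 receptor, in 13 cells. Among genes induced by these receptors, Cish, an inhibitor of STAT5 signalling, was detected in 38.9 ± 6.70%, Socs1 in 47.2 ± 5.38%, Socs2 in 47.3 ± 5.86%, Socs3 in 24.3 ± 9.61%, the survival gene Bcl2 in 56.7 ± 11.5% and its relative Mcl1 in 84.9 ± 5.44%. Of the ligands, Il15 transcripts were in 80 cells, Il4 in 44 and Il7 in 26, and Il2, Il9, Il21, Il13 and Tslp were not among the features analysed here. Among the remaining receptor chains Il21r was detected in 58.7 ± 6.30%, Crlf2 in 52.9 ± 2.55%, Il15ra in 40.5 ± 16.2%, Il9r in 32.96 ± 10.9% and Il13ra1 in 11.1 ± 9.56%.

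Genes whose level moves with each chain were tested on 4 mice: in each mouse every gene was regressed on the chain's log2 level with the correction set and the number of detected genes as covariates, and the 4 slopes were tested with limma (two-sided, Benjamini-Hochberg over 12438 genes). No gene was called for any of the 5 chains at an adjusted p of 0.05, so percent called was 0 for each. The counts at an unadjusted p under 0.05 were 1026 for Il2ra, 1082 for Il2rb, 983 for Il2rg, 1321 for Il7r and 658 for Il4ra, with smallest adjusted p of 0.242, 0.536, 0.210, 0.141 and 0.919. The same test on partial Spearman correlations called 8 genes for Il2ra (0.0643% of all tested), 49 for Il2rb (0.394%), 42 for Il2rg (0.338%), 87 for Il7r (0.699%) and 0 for Il4ra, where 594 had an unadjusted p under 0.05. In that test the spread is nearly shared by all genes (limma's prior degrees of freedom reached 859), and cells of 1 mouse share their libraries and depth. The correlations below (rho) are means over the 4 mice of values within a mouse, with SD over mice. "Called" means an adjusted p under 0.05 in the rank test.

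For Kit, the slope per 1 SD of the chain was 0.70 ± 0.52 log2 on Il2ra (SD, n = 4, positive in 4 of 4 mice, limma adjusted p = 0.408) and -0.50 ± 0.13 on Il7r (negative in 4 of 4, adjusted p = 0.211). Neither passed the slope test. By rank, Kit was called with Il7r, at a rho of -0.260 (adjusted p = 0.021), with -0.314, -0.207, -0.188 and -0.326 by mouse. Without the NK-, dendritic- and mast-like clusters it was -0.173 and the call was lost (limma adjusted p = 0.899). Leaving out single mice gave limma adjusted p from 0.0498 (without 2A, the only such setting that kept the call) to 0.183 (without 1A). Leaving out plate JW8 gave 0.053. The call was kept without the 14 cells outside the usual sets of their mouse label (0.0156). It was also kept without the first 8 cells of each correction set (0.0155). On Il2rb the Kit slope was -0.64 ± 0.61 (negative in 3 of 4 mice, adjusted p = 0.536), on Il2rg 0.27 ± 0.79 and on Il4ra -0.07 ± 0.50.

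The NK receptor genes ran with Il2rb. Of 13 tested, 11 had a positive rho in all 4 mice and 9 were called by rank, with a median rho of 0.309 and a median slope of 1.08 log2 per SD against -0.04 over all genes. Klrc2, one of the activating NKG2 receptors, had a rho of 0.457 ± 0.164 and Klrk1, which encodes NKG2D, 0.394 ± 0.152. Ncr1, the NK receptor NKp46, had 0.343 ± 0.099. Of 10 NK effector genes tested, 6 were called (Tbx21, Gzma, Ctsw, Ccl5, Xcl1 and Ifng). With Il2rg, 3 NK receptor genes were called (Klrb1b, Cd244a and Cd226). None of the 13 was called with Il2ra, Il7r or Il4ra. The calls with Il2rb and Il2rg rested on few cells. Without the first 8 cells of each correction set, 0 of the 10 NK receptor genes still tested were called with Il2rb (median rho 0.128), and without the NK-, dendritic- and mast-like clusters 0 of 9 (0.0967). Without mouse 1B, 2 of 13 were called with Il2rb, and without plate JW8 5. With Il2rg none was called without those cells, those clusters, mouse 1B or mouse 2A.

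Il2ra was most alike in pattern to Cpa3, a mast cell protease gene also transcribed in early progenitors (rho 0.394 ± 0.242), Scin (0.384 ± 0.192), Tcf7, the Notch-induced T cell factor (0.353 ± 0.174), Dpp4 (0.340 ± 0.224) and Deptor (0.310 ± 0.253). Most opposite were Ighm, the immunoglobulin mu gene (-0.347 ± 0.150), Flt3, a receptor that early progenitors lose as they commit (-0.292 ± 0.113), and Nek6 (-0.257 ± 0.177). All but Nek6 were called by rank. In cells, Il2ra was at a high level in 48.4% of Tcf7-high cells and 13.9% of the others, in 50% of Cpa3-high cells and 11.9% of the others, and in 23% of Flt3-high cells and 40.99% of the others. The Tcf7 split pointed the same way in each mouse, at 16 of 30, 15 of 44, 23 of 39 and 20 of 40 of Tcf7-high cells against 5 of 37, 2 of 25, 4 of 25 and 4 of 21. These relations were as strong without the NK-, dendritic- and mast-like clusters for Tcf7 (rho 0.391) and Cpa3 (0.392), and both stayed called, while Flt3 did not at a rho of -0.305 (limma adjusted p = 0.136). Without mouse 2A no gene was called for Il2ra.

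The wider T specification list moved unevenly with Il2ra. Of 23 genes tested, 7 had a positive rho in all 4 mice (Tcf7, Trbc1, Hes1, Trbc2, Tox, Dtx1 and Gata3), 3 a negative one (Ets1, Cd27 and Cd247), and Tcf7 alone was called. The Notch target Hes1 was detected in 88.8% of the 89 cells high in Il2ra, 59.6% of the 52 with a trace and 58.3% of the 120 without. Gata3 ran 91.01%, 73.1% and 80.8%, and Ets1 58.4%, 86.5% and 81.7%. Bcl11b, which locks in T commitment, was detected in 20.2%, 15.4% and 8.33%. Flt3 was in 48.3% of the high cells against 69.2% and 67.5%. The Notch targets Nrarp (80.9%, 80.8% and 69.2%) and Dtx1 (66.3%, 61.5% and 44.2%) were also detected more often in cells with a trace than in those without. Median detected genes were 7994, 7864.5 and 7523.5.

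Il2rb was most alike in pattern to Tnfrsf9, which encodes the costimulatory receptor 4-1BB (rho 0.476 ± 0.033), Klrc2, the class I gene H2-Q6 (0.433 ± 0.226), the chemokine receptor gene Ccr8 (0.405 ± 0.133) and Ccl5 (0.398 ± 0.157), and most opposite to Ybx1, Nme4 and Slc35d3 (-0.286, -0.273 and -0.268). All 8 were called by rank. High Il2rb was found in 19 of 19 Klrc2-high, 24 of 26 Ccr8-high and 21 of 24 Tnfrsf9-high cells. Tnfrsf9 was the 1 gene called without the NK-, dendritic- and mast-like clusters, at a rho of 0.472. Without the first 8 cells of each correction set 3 genes were called in place of 49, and without plate JW8 18. Leaving out mouse 1A raised the count to 100, and leaving out 1B or 2A gave 15 and 18.

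Il7r was most alike in pattern to Slfn2, a quiescence gene of lymphocytes (rho 0.343 ± 0.060), the cannabinoid receptor gene Cnr2 (0.338 ± 0.113), Cd53 (0.310 ± 0.067), Ctss (0.292 ± 0.135) and Ets1 (0.292 ± 0.081). Most opposite were Pdgfrb (-0.348 ± 0.201), Mpo, the myeloperoxidase gene (-0.343 ± 0.124), and Spata24 (-0.296 ± 0.067), and all 8 were called by rank. Il7r was at a high level in 60.5% of Slfn2-high cells and 26.5% of the others, and in 29.2% of Mpo-high cells and 56.5% of the others. Of 24 T specification genes tested with Il7r, Ets1 was called up and Trbc1 and Tox down. The dendritic genes Siglech, Ly6d, Ccr9 and Cd74 were called up, and the myeloid genes Mpo and Lyz2 down. Without the NK-, dendritic- and mast-like clusters none of the 87 genes was called, with a median absolute rho of 0.167 in place of 0.258. All 87 kept their sign, but they had been picked for their rho in data that hold these same cells. Leaving out 1 mouse at a time left between 7 (without 1B) and 44 (without 2A) genes called.

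Il2rg was detected in nearly all cells, and its level varied among them. By that level it was most alike to Anxa6 (rho 0.414 ± 0.175), Dok2 (0.349 ± 0.184) and the integrin chain gene Itgb2 (0.339 ± 0.145). Next came the T cell adaptor gene Skap1 (0.337 ± 0.122) and Klrb1b (0.331 ± 0.163). Most opposite were Ctsl, Pdlim1 and Pgls (-0.299, -0.274 and -0.269). All 8 were called by rank, and no gene was without the NK-, dendritic- and mast-like clusters or without mouse 2A. For Il4ra the most alike were Tiam2 (0.280 ± 0.074), Far1, Litaf, Ier3 and Trak1 (0.227 to 0.251), and the most opposite Tra2b, Chchd10 and Slx1b, and none was called.

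The pathway lists held no called gene for any chain in either test: 0 of 11 signalling genes tested, 0 of 14 target genes, 0 of 2 ligands and 0 of 5 other receptor chains. Of 15 progenitor genes tested, Flt3 was called down with Il2ra and Kit down with Il7r. From a list of innate lymphoid cell genes, 18 were tested with Il2ra, Il2rb and Il2rg and 17 with Il7r. Tcf7 was called up with Il2ra, Cxcr6 up with Il2rb and Ltb up with Il2rg. With Il7r, Ets1 was called up and Tox down. The median rho of the pathway lists lay between -0.067 and 0.065 for all 5 chains. Among the NK receptor genes, Cd160 had the largest slope on Il2ra, 0.77 ± 0.17 log2 per SD (positive in 4 of 4 mice, limma adjusted p = 0.242), which was singled out after the values were seen.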

How the data were processed

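Sorted single cells in plates gave cDNA primed with oligo-dT, then PCR-amplified and tagmented with Nextera XT, per the labels' protocols. Salmon and the build GRCm38 are named, without versions, per the submitters' processing notes, and neither normalization nor correction tool was given in the sources used here. Values deposited by the authors are batch-corrected log2 levels, from -4.13 to 15.99, for 261 of 300 labelled cells. The other 39 cells were not analysed here. Of 13732 gene identifiers 13578 matched GENCODE vM21. The design allowed for counts, TPM or log2 values, and the log2 values were used as deposited.

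Correction sets of 73, 67, 65 and 56 cells were recognised by exact shared values at no reads, and a value more than 1e-06 from that level was called detected. Where a set had no such level for a gene, as for Il2rg in 3 sets, it was taken as 0. Slopes within each mouse, and partial Spearman correlations as Fisher z, were tested over 4 mice with limma 3.58.1 (R 4.3.3), on genes detected in at least 10% of cells. Altogether 15 alternative settings were tried. The scripts (Python 3.11.15, numpy 2.4.6, scipy 1.17.1, pandas 2.3.3) were tested on simulated data. Clusters (8) used 2000 variable genes and 15 principal components without the members, and a cluster is called by a name when 3 or more markers of that name define it. No doublet caller was run. Genes named are the members, Kit, the genes of the lists of ligands, receptor chains, signalling, targets, NK receptors, progenitor, T specification and other lineages, and for each member the 5 most alike and 3 most opposite by mean rho with 1 sign in all mice. The members and lists were chosen with earlier results of these data known.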

Additional observations from a re-analysis of the deposited data

Results flagged for a closer look

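In 5 of 26 values tested, 1 mouse lay far from the other 3 (past Dixon's 95% critical value), and chance gives about 1 in 20. The share of cells with Il2rg was 97.1% in mouse 1B and 100% in the others, which rests on 2 cells and on the 1 correction set where cells without Il2rg could be recognised, so the mice cannot be compared in it. Mouse 1B was also lowest in Il7r, at 57.97% of cells against 67.2% to 68.7%, and in Il7r with Il2rg, at 55.1%. Those last 2 values rest on nearly the same cells, since the 2 cells without Il2rg had Il7r. Il7r at a high level was found in 44.8% of cells of mouse 1A against 32.8% to 34.4%. The combination of Il2ra, Il2rb and Il2rg was found in 52.5% of cells of mouse 2B against 13.04% to 15.6%, and in 36.1% of 2B without plate JW8.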

How the results depend on the processing

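The slope test called no gene for any chain under 12 of 15 alternatives. With the correction set as the unit it called 2 genes for Il2ra, and with no depth covariate 402 for Il4ra. Partial Spearman correlation called 8, 49, 42 and 87 for Il2ra, Il2rb, Il2rg and Il7r. Those counts changed with the cells used. Leaving out single mice gave 0 (without 2A) to 9 for Il2ra, 15 (without 1B) to 100 (without 1A) for Il2rb, 0 (without 2A) to 41 for Il2rg and 7 (without 1B) to 44 for Il7r. Without the 14 cells outside the usual sets of their mouse label, Il2ra had 5 and Il2rg 24. Without the first 8 cells of each correction set, Il2ra had 4, Il2rb 3 and Il2rg 1. Without the NK-, dendritic- and mast-like clusters, the counts were 5, 1, 0 and 0. Without plate JW8, Il2rb had 18, Il2rg 21 and Il7r 55. The settings that leave out these cells, sets, clusters or plate, and every one of the rank counts by subset, were chosen after seeing the data. Mean shares at a high level in place of detection were 34.4%, 10.99%, 95.4%, 36.3% and 50.96% for Il2ra, Il2rb, Il2rg, Il7r and Il4ra. Without the NK-, dendritic- and mast-like clusters, the slope of Kit on Il2rb was 0.0456 and that of Klre1 on Il2rb -0.00794, both reversed. The slope of Kit on Il4ra, near 0 at -0.07, ran from -0.27 (without 1A) to 0.11 (without 1B) when single mice were left out, and was 0.53 with no depth covariate, 0.0697 without those clusters and 0.0420 as a rho. The causes were not tested. A predictor of detected or not could not be run for Il2rg, which too few cells lack. With unknown read depth, a cell with no reads of a gene cannot be told from a cell with a low level of its transcript.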
